A study of Mus musculus with 15 samples.

Results

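Old mice received a blocking antibody against PD-1 (aPD1ab) or a control antibody (IgG2a), and gene expression in the podocyte fraction of their kidneys was compared between these groups alone. The mice were male C57BL/6J animals of 21 months. Each was injected intraperitoneally once a week for 8 weeks with 12 mg/kg of antibody, either the anti-PD-1 clone RMP1-14 or the isotype-matched clone 2A3, so that no group of uninjected old mice entered the comparison. The titles of the aPD1ab samples give 47 days and those of the IgG2a samples give no time. Of the 15 samples of the series, 5 carry each treatment and 5 are young, and 8 libraries were used here: the 4 aPD1ab and the 4 IgG2a columns whose numbers the study prints beside its groups. They are called aPD1ab 1 to 4 and IgG2a 1 to 4 in the order of those numbers, and the same numeral in both groups pairs nothing. The fraction was made by digesting kidney cortex and capturing cells on magnetic beads with antibodies to nephrin, a slit diaphragm protein of the podocyte surface, and its mRNA was sequenced. Each library is listed as a separate sample, and p-values measure the spread between these samples.

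PD-1, encoded by Pdcd1, is an inhibitory receptor best known from activated T cells. When its ligands PD-L1 (Cd274) or PD-L2 (Pdcd1lg2) bind, phosphatases are recruited to its cytoplasmic tail and signaling from the antigen receptor is dampened. An antibody such as RMP1-14 occupies the receptor and keeps the ligands from binding. In the kidney, podocytes wrap the glomerular capillaries, proximal tubule cells reabsorb most of the filtrate with energy from densely packed mitochondria, and resident macrophages lie between the tubules.

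The libraries held between 19912969 and 32717100 counts on genes, at which depth 3 counts correspond to between 0.0784 and 0.195 CPM (the floor covers counting error only). CPM here are read counts divided by the library's effective size and multiplied by 1e6. The effective size is the total times edgeR's TMM factor, which was 0.962 to 1.21 in aPD1ab, 1.14 in IgG2a 1 and 0.749 to 0.961 in IgG2a 2 to 4. Of all counts, 24.8%, 24.6%, 37.8% and 19.9% in aPD1ab 1 to 4 and 28.6%, 38.2%, 45.7% and 54.2% in IgG2a 1 to 4 fell on the 13 mRNAs encoded by mitochondrial DNA. On the first principal component, which held 56.5% of the variance of log2 CPM, aPD1ab 1 to 4 lay at 15.3, 89.0, 13.1 and 39.4, and IgG2a 2, 3 and 4 at -65.4, -55.0 and -68.2. IgG2a 1 lay at 31.8, among the aPD1ab libraries. Its Spearman correlation across genes was 0.982 with aPD1ab 1 but 0.928 to 0.942 with the other IgG2a libraries, which correlated with each other at 0.978 to 0.986. Because 1 of 4 control libraries goes against its label in this way, fits were made for all 8 libraries and for the 7 without IgG2a 1. Some genes below carry statistics from the fit of 7 only, and over 8 libraries edgeR gave no gene an adjusted p under 0.05. The labels give no dates of collection or sorting, and the numbers of the aPD1ab and IgG2a mice come from separate ranges, so any handling that followed the numbers cannot be told apart from the antibody.

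**Figure D1:**
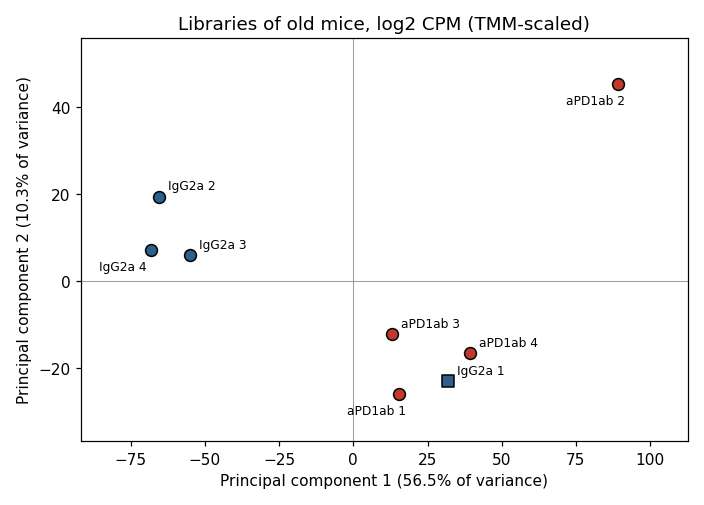
Each point is 1 library, placed by its scores on the first (horizontal, 56.5% of variance) and second (vertical, 10.3%) principal component of log2 CPM over the genes tested, with aPD1ab in red and IgG2a in blue. The square, IgG2a 1, lies at 31.8 on the first component among aPD1ab 1, 3 and 4, while IgG2a 2 to 4 lie between -68.2 and -55.0.

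Counts were fitted with edgeR's quasi-likelihood method and p-values were adjusted by the Benjamini-Hochberg procedure over all genes. Over 8 libraries, 15530 genes were tested and 0 had an adjusted p under 0.05 in either direction (0.0% higher and 0.0% lower). The lowest adjusted p was 0.102, and 4341 genes had an unadjusted p under 0.05, of which 2440 were higher with aPD1ab (15.7%) and 1901 lower (12.2%). Past both this threshold and a 2-fold change, the count was also 0 by limma voom, but 743 higher and 350 lower by DESeq2, and 1268 and 1061 by limma voom with sample quality weights, in which IgG2a 1 received a weight of 0.189. Without IgG2a 1, 2702 of 15770 genes rose with aPD1ab (17.1%) and 2086 fell (13.2%), of which 1334 and 917 changed over 2-fold. With no scaling beyond library size those 2 counts became 2569 and 279, and the median log2 fold change of all genes moved from 0.01 to 0.38. With mitochondrially encoded genes left out and no scaling, the counts were 1173 and 1035 and the median was -0.07. All directions below are therefore relative to the bulk of genes, and in bulk samples fewer cells of a type and less RNA per cell cannot be told apart. "Called" below means an adjusted p under 0.05 in the fit of 7 libraries, in which 17.1% of genes were called higher and 13.2% lower. With no scaling beyond library size, edgeR called 4580 of the 15770 genes higher and 508 lower at this threshold. List counts given below for that setting are to be read beside these.

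Whether the groups overlap does not rest on the fit's estimate of spread, but it does rest on the scaling. All 4 aPD1ab libraries lay above all 4 IgG2a libraries for 1087 genes (7.0%) and below them for 777 (5.0%). In CPM of the library total, without the TMM factor, they lay above for 1262 (8.13%) and below for 156 (1.0%), of which 715 and 122 were among the former genes. Overlap below is in TMM-scaled CPM, with the counts or members that differ without the factor beside it. Of the genes called past 2-fold without IgG2a 1 and tested in both fits, IgG2a 1 lay nearer to the aPD1ab mean than to that of the other IgG2a libraries for 89.0% of 1324 higher genes and 93.7% of 904 lower genes. Groups of all 8 libraries did not overlap for 416 of those higher genes and 96 of the lower genes. A gene without overlap is therefore described below by its 8 values, and the calls are given beside them.

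Among protein-coding genes without overlap over 8 libraries, 5 of the 12 with the smallest p on the higher side encode mitochondrial proteins. Glrx5 (ENSMUSG00000021102, GRCm38 chromosome 12, 105032688 to 105042906) encodes a mitochondrial glutaredoxin needed for iron-sulfur cluster assembly. It was at 31.2, 42.7, 34.2 and 37.2 CPM in aPD1ab 1 to 4 and at 22.5, 13.5, 14.7 and 13.8 CPM in IgG2a 1 to 4. The lowest aPD1ab library thus lay above IgG2a 1, the highest control, and the log2 fold change was 1.17 (SE, standard error, 0.19; edgeR adjusted p = 0.109) over 8 libraries and 1.37 (SE 0.14, adjusted p = 0.00640) without IgG2a 1. Romo1, a small protein of the inner mitochondrial membrane, was at 33.3, 44.8, 39.6 and 38.1 CPM with aPD1ab and 23.7, 15.2, 20.1 and 15.1 CPM with IgG2a. Mrpl28, of the large subunit of the mitochondrial ribosome, was at 40.0, 63.1, 50.01 and 49.5 CPM against 32.2, 26.5, 24.8 and 22.9 CPM. Mrps26, of its small subunit, stood at 26.2 to 34.5 CPM against 15.4 to 20.6 CPM. Gadd45gip1, which is also a mitochondrial ribosome component, lay at 5.23 to 7.26 CPM against 3.07 to 3.73 CPM. Tysnd1, a protease that processes peroxisomal matrix enzymes, lay at 23.9 to 35.2 CPM against 12.2 to 17.3 CPM, with the highest value in aPD1ab 2. These 6 genes were all called without IgG2a 1, although the call of Gadd45gip1 was lost (edgeR adjusted p = 0.0544) without IgG2a 2 as well.

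The other 6 of the 12 higher genes have diverse roles. Aacs, a cytosolic enzyme that activates acetoacetate for lipid synthesis, was at 39.3, 54.0, 48.1 and 37.7 CPM with aPD1ab and 24.8, 17.1, 26.6 and 16.5 CPM with IgG2a. Cyp2j9, a cytochrome P450 of fatty acid metabolism, was at 5.69, 15.7, 8.05 and 13.2 CPM against 4.15, 2.202, 2.85 and 2.22 CPM, a log2 fold change of 1.89 (SE 0.36) over 8 libraries and 2.14 (SE 0.38) without IgG2a 1. Prima1, which anchors acetylcholinesterase in membranes, lay at 1.21 to 4.40 CPM against 0.102 to 0.429 CPM. IgG2a 2 held Prima1 at the floor of 3 counts and IgG2a 3 below it. Chpf, a chondroitin polymerizing factor, Uaca, a cytoskeletal and nuclear-membrane associated protein, and Adgrl1, the adhesion receptor latrophilin 1, had log2 fold changes of 0.71, 0.83 and 0.80 over 8 libraries. Without the TMM factor Adgrl1 overlapped, by aPD1ab 3 and IgG2a 1, and the other 11 higher genes did not. Each of these 6 was also called without IgG2a 1.

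On the lower side the 12 genes included regulators of the cytoskeleton, chromatin and lipid export. Diaph2, a diaphanous-related formin that nucleates actin filaments (ENSMUSG00000034480, chromosome X, 129749742 to 130465834), was at 17.0, 15.9, 18.2 and 18.7 CPM in aPD1ab 1 to 4 and 27.5, 34.0, 36.7 and 34.7 CPM in IgG2a 1 to 4. Its aPD1ab values spanned less than 3 CPM and its log2 fold change was -0.93 (SE 0.13, edgeR adjusted p = 0.109) over 8 libraries and -1.01 (SE 0.11, adjusted p = 0.00640) without IgG2a 1. Kdm6a, an X-linked histone H3K27 demethylase, was at 20.7, 20.04, 19.0 and 20.1 CPM against 26.7, 33.1, 33.8 and 32.6 CPM. Abca1, the transporter that exports cholesterol to apolipoprotein A-I, was at 44.2, 34.1, 31.6 and 42.6 CPM against 55.1, 103, 112 and 78.5 CPM, with a log2 fold change of -1.19 (SE 0.23) over 8 libraries and -1.36 (SE 0.17) without IgG2a 1. IgG2a 1 was the nearest control to the aPD1ab group for all 3 genes. Sulf2, an extracellular sulfatase that edits heparan sulfate, lay at 28.4 to 41.9 CPM against 49.5 to 68.4 CPM. Rnf144b and G2e3, both ubiquitin ligases, lay at 6.13 to 8.04 against 10.1 to 19.5 CPM and at 5.13 to 6.90 against 9.33 to 13.5 CPM. Uba6, a ubiquitin-activating enzyme, and Pggt1b, a subunit of an enzyme that attaches lipid anchors to proteins, had log2 fold changes of -0.66 and -0.90 over 8 libraries. Pramef8 and the zinc finger genes Zfp729b, Zfp935 and Zfp758 complete the 12. They belong to families with near-identical copies, between which reads could be split, so their counts are uncertain. Without the TMM factor the groups overlapped for Kdm6a, Sulf2, Uba6, Pggt1b and Pramef8 and stayed apart for the other 7.

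**Figure D2:**
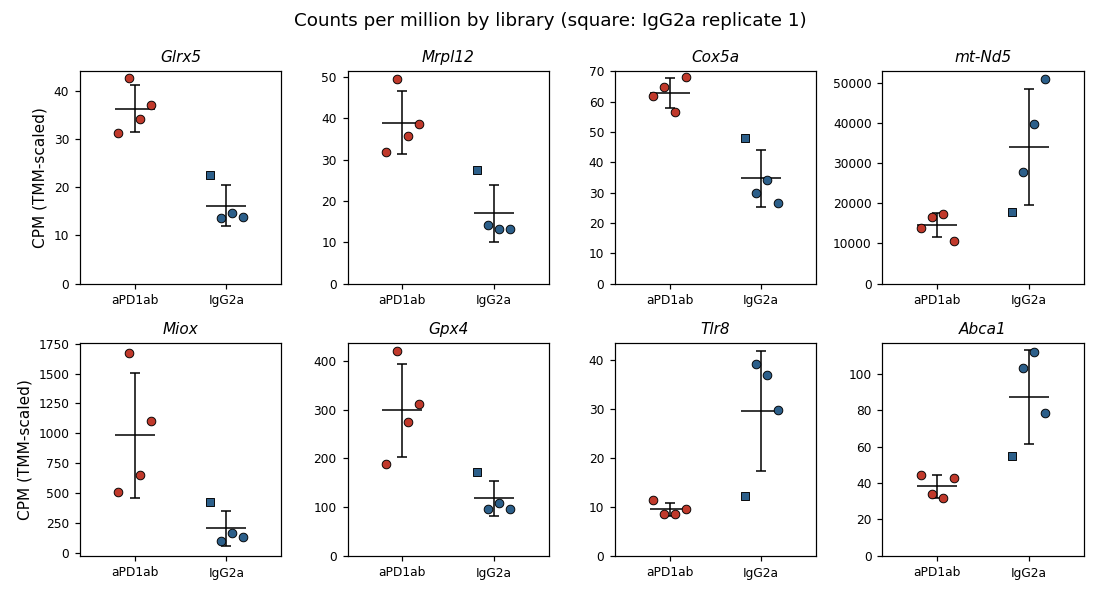
CPM of 8 genes in each library (points; the square is IgG2a 1), with the group mean (long line) and SD (error bars, n = 4), on linear axes. Glrx5, Mrpl12, Cox5a, Miox and Gpx4 lie above every control in each aPD1ab library, mt-Nd5, Tlr8 and Abca1 lie below every control, and IgG2a 1 is the control nearest to the aPD1ab group in all 8 panels. Values are TMM-scaled, and Cox5a overlaps without that factor.

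Without IgG2a 1, the 5 higher genes with the smallest p past both thresholds were Ggnbp1, Ndufc1, Glrx5, Fmc1 and Ddo. Ndufc1, a subunit of respiratory complex I, was at 48.3, 57.9, 55.3 and 60.5 CPM with aPD1ab and 24.0, 23.5 and 25.3 CPM in IgG2a 2 to 4, but 49.7 CPM in IgG2a 1. Fmc1, an assembly factor of ATP synthase, was within 28.6 to 30.6 CPM in the aPD1ab libraries and at 12.3, 12.8 and 14.7 CPM in IgG2a 2 to 4, but at 29.4 CPM in IgG2a 1. Ddo, D-aspartate oxidase of peroxisomes, was higher in IgG2a 1 (27.4 CPM) than in any aPD1ab library (21.1 to 25.8 CPM), against 9.32 to 10.2 CPM in the other controls. IgG2a 1 lay within or above the aPD1ab range for Ndufc1, Fmc1 and Ddo, and between the groups for Glrx5 and Ggnbp1. The 5 lower genes were Tlr8, Tlr13, Dna2, Clec4a1 and Fam49a. Of these, Tlr8, an endosomal receptor for single-stranded RNA, did not overlap over 8 libraries, at 11.4, 8.61, 8.57 and 9.50 CPM with aPD1ab against 12.3, 39.3, 37.0 and 29.8 CPM. Tlr13, an endosomal receptor for bacterial ribosomal RNA, was at 20.9 to 27.4 CPM with aPD1ab, at 72.8 to 103 CPM in IgG2a 2 to 4 and at 22.9 CPM in IgG2a 1.

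Mitochondrial ribosomal proteins, which translate the few mRNAs of the organelle, had the largest share of members without overlap over 8 libraries among the 51 lists. Of 22 members, 13 lay above every control in all aPD1ab libraries (7.0% of all genes), 0 lay below (5.0% of all genes), and 20 were called higher. Without the TMM factor 11 lay above (8.13% of all genes), 9 of them the same genes. Their median log2 fold change was 0.58 over 8 libraries and 0.72 over 7, where the medians of all genes tested were -0.01 and 0.01. Mrpl12 (ENSMUSG00000039640, chromosome 11, 120484613 to 120489065), of the large subunit, was at 31.7, 49.5, 35.8 and 38.7 CPM with aPD1ab and 27.4, 14.2, 13.3 and 13.3 CPM with IgG2a. Mrpl37 was at 52.4, 64.7, 54.5 and 53.6 CPM against 52.1, 34.7, 38.5 and 39.5 CPM, so that the lowest aPD1ab library and IgG2a 1 differed by less than 1 CPM, and the groups overlapped without the TMM factor. The list summed to 599, 852, 645 and 668 CPM in aPD1ab 1 to 4 and to 570, 406, 407 and 408 CPM in IgG2a 1 to 4. Proteins of the cytosolic ribosome gave a different picture: of 26 members, 0 were called by edgeR with or without IgG2a 1 and 0 had an unadjusted p under 0.05 in either fit, while without IgG2a 1 DESeq2 called 1 lower and limma voom 0. The share without overlap depends on the scaling. Without the TMM factor 8 of the 26 (30.8%) lay above every control, against 8.13% of all genes, in place of 0. With no scaling beyond library size edgeR called 1 of the 26 higher over 7 libraries, but 21 of the 22 mitochondrial ribosomal proteins. The median of the cytosolic list was 0.05 over 8 libraries and -0.07 over 7, and 0.33 and 0.28 with no scaling beyond library size. The medians of all genes were then 0.24 and 0.38, and those of the mitochondrial ribosome 0.80 and 1.07.

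Subunits of the respiratory chain that are encoded in the nucleus were all higher in fold change, and all 32 were called without IgG2a 1. Over 8 libraries 26 had an unadjusted p under 0.05 and 8 did not overlap, of which 3 belong to complex I and 4 to complex IV. Without the TMM factor 6 did not overlap, 5 of them the same genes, and Cox5a was among those that then did. By complex, the median log2 fold changes over 8 and 7 libraries were 0.71 and 0.98 for 12 subunits of complex I, which oxidizes NADH, 0.64 and 0.92 for 4 of complex II, and 0.74 and 1.05 for 5 of complex III. They were 0.78 and 1.01 for 6 subunits of complex IV, the cytochrome c oxidase, and 0.62 and 0.93 for 4 of ATP synthase. The range over complexes was thus narrow beside the change itself. Cox5a of complex IV was at 62.0, 64.8, 56.5 and 68.1 CPM with aPD1ab and 48.0, 29.9, 34.3 and 26.7 CPM with IgG2a, a log2 fold change of 0.85 (SE 0.19) over 8 libraries and 1.05 (SE 0.13, edgeR adjusted p = 0.00640) over 7. Ndufb9 of complex I was at 163, 215, 196 and 171 CPM against 156, 87.7, 87.3 and 82.2 CPM. Cycs, the soluble electron carrier cytochrome c, overlapped because of IgG2a 1, with 163 to 224 CPM against 170, 72.9, 71.7 and 76.7 CPM. The same held for Atp5b, the catalytic beta subunit of ATP synthase, at 1607 to 2272 CPM against 1892, 941, 953 and 970 CPM.

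**Figure D3:**
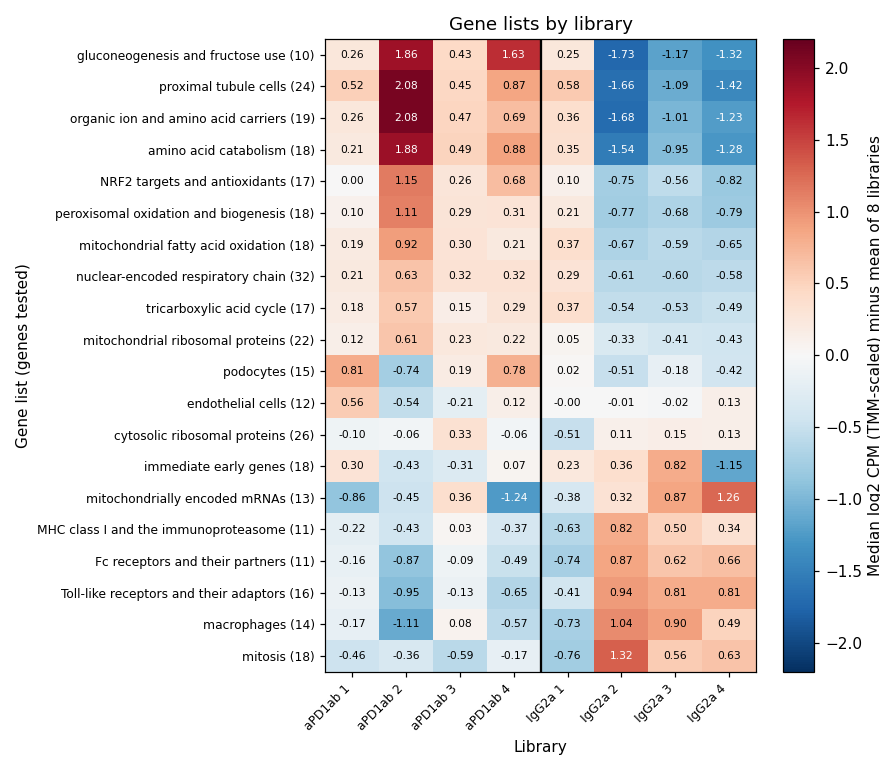
Each row is a gene list with the number of genes tested, each column a library (aPD1ab 1 to 4, then IgG2a 1 to 4), and colour and printed value give the median over the list of log2 CPM minus the gene's mean over 8 libraries. Lists of oxidative metabolism and of proximal tubule cells are negative in IgG2a 2 to 4, by -0.33 to -1.73, and at or above 0.00 in aPD1ab 1 to 4 and IgG2a 1, macrophage, Toll-like receptor and mitosis lists are positive in IgG2a 2 to 4, and IgG2a 1 has the sign of most aPD1ab libraries in all of these lists.

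The mRNAs encoded by mitochondrial DNA moved in the other direction. Of 13 tested, 6 were called lower, 0 higher, and the median log2 fold change was -1.08 over 8 libraries and -1.36 over 7. mt-Nd5, a complex I subunit, was the member without overlap (1 of 2 without the TMM factor), at 13732, 16456, 17426 and 10646 CPM with aPD1ab and 17830, 27687, 39650 and 50971 CPM with IgG2a. The gap between aPD1ab 3 and IgG2a 1 was small beside the spread of the controls, and the log2 fold change was -1.22 (SE 0.41, edgeR adjusted p = 0.121) over 8 libraries and -1.44 (SE 0.33, adjusted p = 0.0161) over 7, with the call lost (up to 0.0568) without IgG2a 3 or 4. mt-Co1, the catalytic subunit of complex IV and the most abundant gene of each library, was at 76409, 86104, 129517 and 61459 CPM against 95106, 144079, 197095 and 256935 CPM. It was not called (log2 fold change -1.17 over 7 libraries, edgeR adjusted p = 0.0609), and neither was mt-Nd1 (-1.10, adjusted p = 0.0927) or mt-Cytb (-1.07, adjusted p = 0.0914). aPD1ab 3 held more of these 3 mRNAs than IgG2a 1, and IgG2a 4 held the most. Within complex I and complex IV, nuclear subunits were therefore higher and mitochondrially encoded subunits were lower in fold change with aPD1ab. With no scaling beyond library size 4 were called lower and the medians of the list were -0.82 and -1.05. These mRNAs alone fill up to 54.2% of a library. With these genes left out, 1313 genes rose and 931 fell past 2-fold over 7 libraries, or 1173 and 1035 without the TMM factor.

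The remaining lists of mitochondrial and peroxisomal metabolism were higher as well. All 17 enzymes of the tricarboxylic acid cycle were called, with medians of 0.55 and 0.82 over 8 and 7 libraries, but 0 were without overlap over 8. Of 18 genes of mitochondrial fatty acid oxidation, 17 were called and 2 did not overlap (1 without the TMM factor), with medians of 0.75 and 1.07. Etfb, which passes electrons from acyl-CoA dehydrogenases to the respiratory chain, was at 156, 310, 205 and 179 CPM against 140, 64.6, 70.8 and 66.7 CPM. Cpt1a, which admits long-chain fatty acids to mitochondria, was the member not called, with 310, 319, 267 and 217 CPM against 370, 218, 232 and 221 CPM. Of 18 peroxisomal genes, 16 were called, 5 did not overlap, and the medians were 0.95 and 1.30. Dao, D-amino acid oxidase, was at 88.5, 320, 101 and 197 CPM against 77.4, 18.1, 28.4 and 24.9 CPM, a log2 fold change of 2.24 (SE 0.57) over 8 libraries and 2.89 (SE 0.49) over 7.

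Markers of proximal tubule cells, which are not the cells the nephrin antibodies select, moved with all of these lists. Of 24 markers, 23 were called higher, 5 did not overlap over 8 libraries (3 without the TMM factor), and their medians were 1.72 and 2.54. The list summed to 11060, 32033, 11958 and 12707 CPM in aPD1ab 1 to 4 and to 11156, 2364, 3516 and 2881 CPM in IgG2a 1 to 4, so IgG2a 1 held as much as aPD1ab 1 and aPD1ab 2 held the most. Miox, an inositol-degrading enzyme largely restricted to the renal tubule (ENSMUSG00000022613, chromosome 15, 89334398 to 89337015), was at 508, 1675, 649 and 1099 CPM with aPD1ab and 420, 97.0, 162 and 128 CPM with IgG2a, a log2 fold change of 2.28 (SE 0.56, edgeR adjusted p = 0.109) over 8 libraries and 2.93 (SE 0.46, adjusted p = 0.00752) over 7. Slc34a1, the sodium-phosphate cotransporter NaPi-IIa of the brush border, was at 1613, 4882, 1512 and 3096 CPM against 1423, 282, 447 and 477 CPM. Its lowest aPD1ab library stood only just above IgG2a 1, and below it without the TMM factor. Kap, an androgen-regulated protein of the mouse proximal tubule, was at 3109, 9040, 4013 and 817 CPM against 3073, 544, 877 and 567 CPM, and here aPD1ab 4 lay within the range of the controls although it was high for most of the list. The part of proximal tubule content in the metabolic results was not tested.

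Pathways that the proximal tubule carries out showed the largest medians. All 10 genes of gluconeogenesis and fructose use were called higher, 4 did not overlap (also 4 without the TMM factor, 3 of them the same genes), and the medians were 1.93 and 2.48. Khk, the fructokinase that starts fructose use, was at 129, 389, 187 and 212 CPM against 105, 38.7, 52.4 and 43.2 CPM, a log2 fold change of 1.94 (SE 0.43) over 8 libraries and 2.36 (SE 0.37) over 7. Pck1, the rate-limiting enzyme of gluconeogenesis, was at 239, 610, 310 and 681 CPM against 297, 36.9, 103 and 49.4 CPM, with IgG2a 1 inside the aPD1ab range. G6pc, which releases free glucose, was at 71.9 to 312 CPM against 107, 23.5, 28.5 and 28.3 CPM. The list summed to 2171, 6782, 2596 and 5373 CPM with aPD1ab and to 2242, 509, 799 and 652 CPM with IgG2a. Glycolysis, the opposite direction of the same path, had 8 of 16 genes called higher and 2 lower, with medians of 0.24 and 0.45. Ldha, lactate dehydrogenase A, was at 279, 496, 311 and 371 CPM against 255, 208, 196 and 173 CPM.

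Of 18 enzymes of amino acid breakdown, 17 were called higher, with medians of 1.54 and 2.17. Gldc, the decarboxylase of the glycine cleavage system, was at 25.8, 116, 15.3 and 124 CPM with aPD1ab and 31.0, 4.56, 7.23 and 6.26 CPM with IgG2a, so that the libraries aPD1ab 2 and 4 held several times the level of aPD1ab 1 and 3. Bhmt, betaine-homocysteine methyltransferase, was at 1.54, 6.65, 4.96 and 4.79 CPM against 2.06, 0.197, 0.407 and 0.130 CPM, which in IgG2a 4 is under 3 counts. Of 19 carriers of organic ions and amino acids, 14 were called higher, with medians of 1.84 and 2.57. Slc7a8, an exchanger of neutral amino acids, was one of the members not called, at 120, 225, 99.4 and 310 CPM against 118, 95.0, 97.5 and 84.8 CPM.

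Among 17 antioxidant and NRF2 target genes, 14 were called higher and 5 did not overlap (4 without the TMM factor), with medians of 0.91 and 1.26. Gpx4, the glutathione peroxidase that reduces lipid hydroperoxides (ENSMUSG00000075706, chromosome 10, 80047166 to 80056439), was at 189, 420, 274 and 311 CPM with aPD1ab and 171, 96.7, 109 and 95.9 CPM with IgG2a. Its log2 fold change was 1.34 (SE 0.29, edgeR adjusted p = 0.109) over 8 libraries and 1.57 (SE 0.26, adjusted p = 0.00777) over 7. Gpx3, the secreted glutathione peroxidase that proximal tubule cells make, was at 7130, 25569, 9311 and 27172 CPM against 6841, 1454, 2400 and 3090 CPM. Gclm, the modifier subunit of the enzyme that limits glutathione synthesis, lay at 50.5 to 117 CPM against 50.4, 25.5, 28.4 and 22.1 CPM, so that the lowest aPD1ab library and IgG2a 1 were all but equal, and the groups overlapped without the TMM factor. Hmox1, heme oxygenase 1, was not called and lay at 77.5, 74.6, 76.0 and 233 CPM against 122, 167, 216 and 61.8 CPM. aPD1ab 4 stood apart from its group, and the controls were widely spread, with IgG2a 4 the lowest.

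Macrophage markers were lower with aPD1ab. Of 14 markers, 13 were called lower and 0 higher (7 lower with no scaling beyond library size). Over 8 libraries 0 were without overlap, and 8 had an unadjusted p under 0.05. The medians were -0.93 and -1.19, and the list summed to 3661, 1894, 4424 and 2807 CPM in aPD1ab 1 to 4 and to 2506, 8125, 7470 and 5672 CPM in IgG2a 1 to 4. Csf1r, the receptor for the growth factor that sustains macrophages, was at 563, 327, 606 and 382 CPM against 416, 1219, 1189 and 1038 CPM. Adgre1, which encodes F4/80, was at 204, 88.7, 190 and 141 CPM against 164, 400, 422 and 327 CPM, a log2 fold change of -1.07 (SE 0.35, edgeR adjusted p = 0.121) over 8 libraries and -1.29 (SE 0.28, adjusted p = 0.0132) over 7, with the call lost (up to 0.0551) without IgG2a 2 or 3. Cd68, a lysosomal membrane protein of phagocytes, was at 122, 87.2, 105 and 105 CPM against 84.3, 270, 220 and 225 CPM. In each of these 3 genes IgG2a 2 to 4 lay above every other library and IgG2a 1 lay within or below the aPD1ab range.

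Receptors that macrophages and other myeloid cells carry were lower alongside these markers. Of 11 Fc receptors and their partners, 10 were called lower, with medians of -0.82 and -1.10. With no scaling beyond library size 3 were, beside 508 of 15770 of all genes, and the call of Fcgr2b was among those lost. Fcgr2b, the inhibitory receptor for IgG, was at 178, 101, 209 and 151 CPM with aPD1ab and 128, 337, 316 and 309 CPM with IgG2a. Fcgr4, an activating receptor that binds mouse IgG2a, was at 62.2, 42.5, 83.2 and 41.3 CPM against 43.9, 162, 114 and 114 CPM. Of 16 Toll-like receptors and adaptors, 10 were called lower and 0 higher (8 and 1 with no scaling beyond library size), and 2 lay below every control without overlap, as they did without the TMM factor. The second besides Tlr8 was Tlr3, an endosomal receptor for double-stranded RNA, at 13.8, 17.5, 19.4 and 12.5 CPM against 21.8, 32.05, 24.9 and 26.4 CPM, a log2 fold change of -0.74 (SE 0.18) over 8 libraries and -0.82 (SE 0.18) over 7. Tlr12, which senses profilin of protozoa, went the other way without being called, at 21.8, 37.5, 22.1 and 26.5 CPM against 10.9, 19.5, 19.8 and 15.5 CPM. The part of macrophage content in these counts was not tested.

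Genes of MHC class I presentation, which most nucleated cells express, showed smaller differences in the same direction. Of 11, 10 were called lower and 1 did not overlap (0 without the TMM factor), with medians of -0.60 and -0.83. With no scaling beyond library size 2 were called lower (508 of 15770 of all genes), and B2m and Erap1 were not. That gene, Erap1, an aminopeptidase that trims peptides in the endoplasmic reticulum, was at 37.2, 35.5, 30.6 and 37.1 CPM with aPD1ab and 40.1, 53.9, 48.6 and 53.6 CPM with IgG2a. B2m, the light chain of all class I molecules, was at 616, 602, 746 and 594 CPM against 494, 1566, 1132 and 987 CPM. Nlrc5, the transactivator of class I genes, was at 36.5, 32.3, 35.8 and 29.1 CPM against 31.0, 93.3, 67.8 and 69.5 CPM, with a log2 fold change of -1.20 (SE 0.15, edgeR adjusted p = 0.00640) over 7 libraries. IgG2a 1 held less B2m than any aPD1ab library. MHC class II presentation, which fewer cell types carry out, had 2 of 10 genes called lower (1 with no scaling beyond library size) and medians of -0.73 and -0.99.

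Genes of dividing cells were lower. Of 18 mitosis genes, 14 were called lower and 0 higher (8 lower with no scaling beyond library size), with medians of -1.11 and -1.40. The list summed to 57.4, 57.0, 49.4 and 72.0 CPM with aPD1ab and 46.0, 205, 124 and 123 CPM with IgG2a. Mki67, the proliferation marker Ki-67, was at 15.9, 13.8, 12.8 and 22.4 CPM against 11.2, 59.6, 38.7 and 33.3 CPM. Bub1b, a kinase of the spindle checkpoint, was at 3.74, 3.76, 4.18 and 4.69 CPM against 3.67, 13.4, 9.72 and 12.6 CPM, a log2 fold change of -1.26 (SE 0.36) over 8 libraries and -1.54 (SE 0.18) over 7. For both genes IgG2a 1 was the lowest of all 8 libraries. Of 18 DNA replication genes, 10 were called lower and 1 higher. With no scaling beyond library size 0 were called lower and 1 higher (4 and 1 at an unadjusted p under 0.05), so the lower calls did not hold in that setting. In TMM-scaled CPM 2 lay below every control without overlap (only Pola1 without the TMM factor). Mcm4, of the replicative helicase, was at 14.4, 12.96, 13.7 and 16.1 CPM against 16.7, 28.2, 21.3 and 22.7 CPM, and Pola1, the catalytic subunit of DNA polymerase alpha, at 7.30, 6.62, 6.74 and 6.62 CPM against 7.88, 11.8, 12.3 and 11.8 CPM. Tyms, thymidylate synthase, was the member called higher, at 8.04, 8.89, 6.85 and 9.89 CPM against 7.67, 5.90, 5.65 and 5.15 CPM (edgeR adjusted p = 0.0383 over 7 libraries, and up to 0.106 when another library was left out).

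The receptor that the antibody binds was sparse in every library. Pdcd1 was at 0.220, 0.548, 0.418 and 0.576 CPM with aPD1ab and 0.590, 0.944, 1.02 and 0.652 CPM with IgG2a, so that no aPD1ab library reached the lowest control, although without the TMM factor aPD1ab 2 and 4 did. The log2 fold change was -0.84 (SE 0.40, edgeR adjusted p = 0.202) over 8 libraries and -0.97 (SE 0.43, adjusted p = 0.119) over 7. The antibody acts on the protein, and this count says nothing of receptor occupancy. The ligand Cd274 was at 21.3, 24.4, 12.3 and 25.0 CPM against 20.1, 42.3, 39.3 and 25.5 CPM (log2 fold change -0.78 over 7 libraries, edgeR adjusted p = 0.0593), and Pdcd1lg2 at 0.440 to 1.68 CPM against 0.407 to 1.69 CPM. Of 11 genes of the PD-1 axis and related checkpoints that could be tested, 3 were called lower (1 with no scaling beyond library size), among them Cd86, a ligand of CD28, at 47.5, 24.0, 61.5 and 49.0 CPM against 34.2, 97.1, 102 and 68.8 CPM, whose edgeR adjusted p of 0.0395 over 7 libraries went up to 0.123 when another was left out. Of 15 genes of T cell receptor signaling, 8 were called lower. Of 13 T cell markers 2 were, near the 13.2% of all genes. With no scaling beyond library size edgeR called 5 and 0 lower, beside 508 of 15770 of all genes. In that setting 3 T cell markers were lower at an unadjusted p under 0.05. Cd8a, the alpha chain of CD8, was at 1.25, 0.861, 1.67 and 1.15 CPM against 0.858, 3.4998, 1.63 and 4.17 CPM (edgeR adjusted p = 0.0326 over 7 libraries, and up to 0.127 when another library was left out), while Lck, the kinase that initiates T cell receptor signaling, was at 1.88 to 4.18 CPM against 1.501 to 5.28 CPM and was not called. Plcg1, the phospholipase downstream of the T cell receptor and of growth factor receptors, lay above every control in all aPD1ab libraries, at 36.8 to 40.5 CPM against 31.8 to 35.8 CPM, but overlapped them without the TMM factor, and its log2 fold change was 0.25 over 7 libraries (SE 0.10, edgeR adjusted p = 0.0863).

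Genes that interferon induces varied widely within each group. Of 23, 5 were called lower (2 with no scaling beyond library size) and 0 were without overlap, with medians of -0.71 and -0.99. Their promoters show what the members share: the letters GAAANNGAA, a spaced pair of GAAA-like repeats as in interferon-stimulated response elements, stood on either strand in 14 of 18 members with a promoter in RefSeq (GRCm38.p6, 250 bases before to 50 after the start), 77.8%, against 2638 of 27025 genes, 9.76%. The stretches from 2 members with high counts, and from C1qc, a complement component that macrophages make, are given 5′ to 3′ on the strand of the gene with matching letters in capitals:
Stat2 (chr10:128270251-128270310, + strand): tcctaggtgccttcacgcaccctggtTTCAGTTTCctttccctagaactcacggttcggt
Bst2 (chr8:71537569-71537628, - strand): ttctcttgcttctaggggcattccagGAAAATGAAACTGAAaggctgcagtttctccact
C1qc (chr4:136893076-136893135, - strand): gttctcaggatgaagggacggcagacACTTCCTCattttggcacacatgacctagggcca
The capitals in Bst2 hold 2 overlapping matches, those in Stat2 are the reverse complement of the letters searched, and those in C1qc are the reverse complement of GAGGAAGT, a form of the site that the myeloid factor PU.1 binds. The latter letters were in 1 of 8 macrophage markers with a promoter (12.5%) and 997 of 27025 genes (3.69%), and CAAAGTCCA, a form of the HNF4 site, in 0 of 19 proximal tubule markers and 150 genes (0.555%). A match is a description of the letters and not of a bound site.

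The interferon list summed to 504, 1251, 601 and 496 CPM in aPD1ab 1 to 4 and to 461, 2708, 971 and 849 CPM in IgG2a 1 to 4. IgG2a 2 and aPD1ab 2 were thus the highest library of their group. Irf7, a transcription factor that amplifies interferon production, was at 43.4, 212, 43.4 and 39.1 CPM with aPD1ab and 39.3, 484, 92.4 and 78.7 CPM with IgG2a. Oasl2, an oligoadenylate synthetase-like protein, was at 30.5, 90.0, 39.2 and 23.5 CPM against 29.6, 252, 75.2 and 76.2 CPM. Both were higher in aPD1ab 2 than in the other aPD1ab libraries, and neither was called (edgeR adjusted p = 0.241 for Irf7 and 0.0740 for Oasl2 over 7 libraries). Stat2, a subunit of the factor that binds these elements, was at 53.4, 85.4, 63.8 and 60.1 CPM against 47.7, 182, 90.4 and 87.3 CPM, and Bst2, which tethers budding virus particles to the cell, at 43.3, 68.8, 61.0 and 35.2 CPM against 31.6, 187, 65.0 and 51.7 CPM. The median of the list stayed negative when any 1 library was left out.

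Clock genes divided the libraries across the groups. Arntl, which encodes the activator BMAL1, was at 27.1, 25.8, 6.64 and 18.4 CPM in aPD1ab 1 to 4 and at 32.3, 8.02, 6.92 and 7.23 CPM in IgG2a 1 to 4. Its partner Npas2 was at 7.82, 20.04, 1.67 and 8.72 CPM against 12.0, 0.904, 0.916 and 1.499 CPM. Genes of the opposite phase were high where these were low: Dbp, an output gene driven by the activators, was at 3.67, 2.11, 20.4 and 4.50 CPM against 1.69, 22.8, 27.8 and 15.1 CPM. Per3, a period gene of the repressing arm, was at 5.72, 5.44, 17.1 and 6.83 CPM against 5.98, 18.1, 17.9 and 15.1 CPM, and Nr1d2, which encodes the repressor REV-ERB beta, at 21.0, 27.0, 80.6 and 37.2 CPM against 26.4, 73.2, 80.8 and 57.8 CPM. aPD1ab 1, 2 and 4 with IgG2a 1 thus held high Arntl and low Dbp, and aPD1ab 3 with IgG2a 2 to 4 the reverse. Of 15 clock genes, 3 were called higher (Arntl, Npas2 and Hlf), near the 17.1% of all genes, and 0 lower (13.2% of all genes). The medians of the list were -0.04 and -0.14, or 0.21 and 0.18 with no scaling beyond library size. The call of Arntl (edgeR adjusted p = 0.0420 over 7 libraries) was lost, at up to 0.121, when any library other than aPD1ab 3 was left out, and that of Npas2, at up to 0.0775, without any of IgG2a 2 to 4. Cry1, another repressor, was at 10.97, 11.1, 4.18 and 7.36 CPM against 9.78, 4.01, 6.36 and 3.45 CPM, and Clock, the usual partner of BMAL1, at 32.9 to 46.8 CPM against 37.9 to 57.5 CPM. Hlf, an output factor of the same family as Dbp, was the member without overlap, at 22.2, 73.3, 31.98 and 33.5 CPM against 22.0, 11.6, 11.6 and 8.86 CPM. The labels give no time of day, and the part of collection time in any result was not tested.

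**Figure D4:**
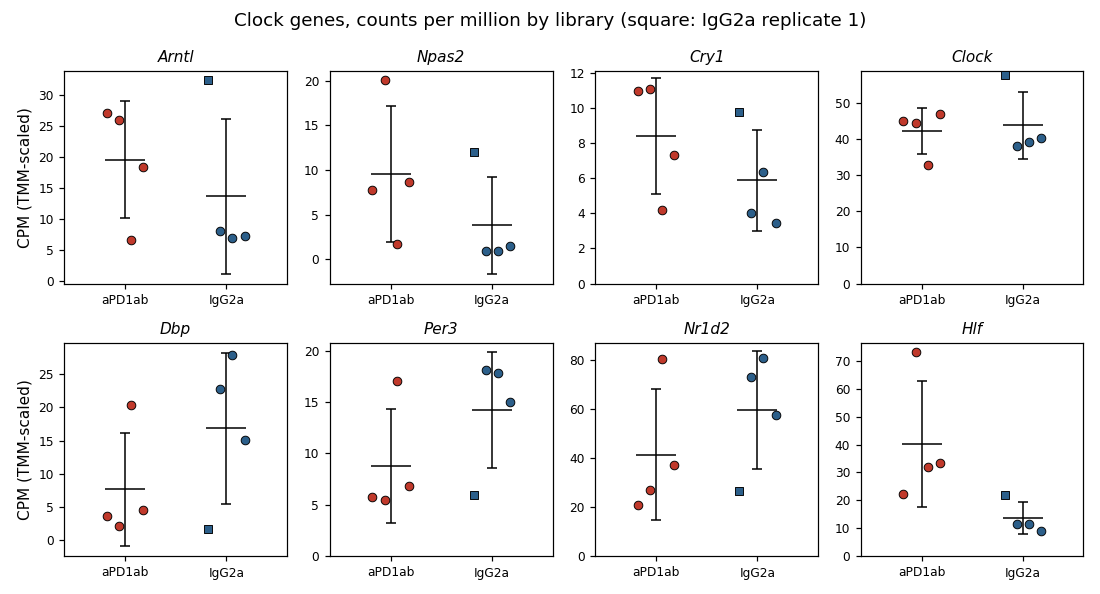
CPM of 8 clock genes in each library (points; the square is IgG2a 1), with group mean (long line) and SD (error bars, n = 4), on linear axes. In Arntl and Npas2, aPD1ab 3 lies with IgG2a 2 to 4 near the bottom and IgG2a 1 with the other aPD1ab libraries, and in Dbp, Per3 and Nr1d2 the same 4 libraries lie at the top.

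The span of a gene in the genome, introns included, differed between the genes that were higher and lower without overlap. The median span of protein-coding genes was 10.5 kb for 1014 genes above every control, 53.2 kb for 715 genes below every control and 24.8 kb for 12132 overlapping genes. In the shortest of 4 equal groups of genes (0.204 to 10.5 kb) 14.7% lay above and 1.44% below, and in the longest (57.6 to 2961 kb) 2.42% lay above and 9.90% below. Between them the shares above fell from 7.36% to 4.73% and those below went from 3.46% to 5.83%. Without the TMM factor 17.5% of the shortest group lay above and 0.375% below, and of the longest group 2.45% and 1.56%. The genes named above follow this order only in part. Romo1, Miox and Gpx4, which were higher, are in the shortest group, and Diaph2, which was lower, is in the longest. Against the order, Uaca, which was higher, is in the longest group, and Pramef8, which was lower, is in the shortest. The spans of mitochondrial ribosomal and respiratory chain genes were not compared with those of other genes, and the part of span in their results was not tested.

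**Figure D5:**
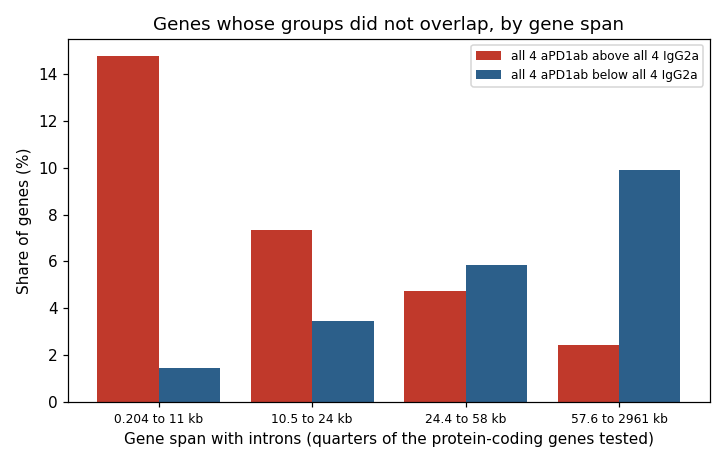
Share of protein-coding genes tested (vertical axis, %) in which all 4 aPD1ab libraries lay above (red) or below (blue) all 4 IgG2a libraries, for 4 equal groups of genes by genomic span in kb (horizontal axis). The red share goes from 14.7% in the shortest to 2.42% in the longest group and the blue share from 1.44% to 9.90%.

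Markers of the labelled cell type were detected in each library, and most were higher in fold change. The share of them called higher by edgeR was near that of all genes. Of 15 podocyte markers, all were detected well enough to be tested, 13 had a higher fold change over 8 libraries and 12 over 7, and the medians were 0.58 and 0.83. Over 7 libraries edgeR called 3 higher and 1 lower, beside 17.1% and 13.2% of all genes. By limma voom there were 1 and 1, by DESeq2 7 and 2, and by limma voom with sample quality weights 9 and 2. Of all 15770 genes these called 2330 and 2195, 3187 and 2798, and 3272 and 2989. With no scaling beyond library size edgeR called 8 and 0 markers, beside 4580 and 508 of all genes. The list summed to 961, 436, 652 and 802 CPM with aPD1ab and 616, 767, 810 and 657 CPM with IgG2a. Over the same libraries the 24 proximal tubule markers summed to 2364 to 32033 CPM and the 14 macrophage markers to 1894 to 8125 CPM. Values in this report are thus of the whole fraction and not of podocytes alone. Nphs1, the nephrin gene, was at 35.8, 7.32, 17.5 and 39.8 CPM against 17.7, 4.40, 6.72 and 3.91 CPM (log2 fold change 2.33 over 7 libraries, edgeR adjusted p = 0.0202), and Wt1, a podocyte transcription factor, at 12.5, 2.78, 7.63 and 12.3 CPM against 5.52, 2.12, 2.95 and 1.95 CPM. aPD1ab 2 held the least of both within its group, and both calls were lost without any of IgG2a 2 to 4, at an edgeR adjusted p of up to 0.0823 for Nphs1 and 0.0978 for Wt1, whose call was also lost without aPD1ab 4. Podxl, a sialoglycoprotein of the podocyte surface that endothelium also makes, was at 325, 111, 163 and 257 CPM against 188, 156, 163 and 191 CPM and was not called.

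Markers of several other cell types were not called. edgeR called 0 of 12 endothelial, 0 of 12 mesangial and mural, 0 of 10 B cell, 0 of 8 plasma cell and 0 of 7 intercalated cell markers with or without IgG2a 1. At an unadjusted p under 0.05 there were 0 over 8 libraries in all 5 lists and, over 7, 1 mesangial marker higher and 0 in the rest. DESeq2 and limma voom also called 0 in each, and limma voom with sample quality weights called 5 mesangial markers lower. With no scaling beyond library size, edgeR called 2 intercalated, 1 endothelial and 1 mesangial marker higher over 7 libraries. Kdr, the VEGF receptor of endothelium, was at 231, 72.1, 93.6 and 154 CPM with aPD1ab and 169, 132, 137 and 120 CPM with IgG2a. Igkc, the immunoglobulin kappa constant region that plasma cells transcribe, was at 1816, 163, 2601 and 2014 CPM against 1693, 1505, 1628 and 2829 CPM, and aPD1ab 2 stood apart from the other 7. Umod, made by the thick ascending limb, was at 3775, 2944, 3921 and 1828 CPM against 4972, 2689, 2292 and 2649 CPM, and Slc12a3, the thiazide-sensitive cotransporter of the distal convoluted tubule, at 4225, 1835, 2995 and 2535 CPM against 5462, 2043, 2262 and 2148 CPM. IgG2a 1 was the highest of all libraries in both of these distal genes. None of 18 immediate early genes, which dissociation of tissue induces, was called by edgeR in either fit. At an unadjusted p under 0.05 there was 0 over 8 libraries and 1 over 7, DESeq2 and limma voom called 0 in each, and limma voom with sample quality weights called 1 higher in each, as did edgeR with no scaling beyond library size over 7.

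Genes of kidney injury did not share a direction. Havcr1, which encodes the tubular injury marker KIM-1, was at 2.02, 1.37, 0.732 and 24.4 CPM with aPD1ab and 1.02, 1.34, 2.04 and 0.652 CPM with IgG2a. The level in aPD1ab 4 alone set its log2 fold change of 2.41 over 7 libraries (edgeR adjusted p = 0.176). Of 13 injury genes tested, 2 were called higher and 2 lower, near the 17.1% and 13.2% of all genes. Those called lower were Vim, an intermediate filament protein, and Cd44, a hyaluronan receptor, which leukocytes also make. Cd44 was at 51.7, 43.6, 36.5 and 56.6 CPM against 36.9, 94.5, 94.0 and 119 CPM (edgeR adjusted p = 0.00737 over 7 libraries), while the call of Vim was lost with no scaling beyond library size. Cxcl1, a neutrophil chemoattractant, lay above every control with aPD1ab, at 20.4, 31.1, 21.4 and 48.7 CPM against 11.4, 17.5, 16.2 and 2.41 CPM, but was not called (log2 fold change 1.33 over 7 libraries, edgeR adjusted p = 0.128). Ern1, the kinase and ribonuclease IRE1 alpha that senses unfolded proteins, lay below every control, at 27.6, 22.7, 26.5 and 28.2 CPM against 31.4, 40.2, 42.9 and 47.8 CPM, and was called lower, except with no scaling beyond library size (edgeR adjusted p = 0.184).

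aPD1ab 2, whose correlations with the other aPD1ab libraries were the lowest of that group, lay farthest from them in single genes such as the following. Vsig4, a complement receptor of tissue macrophages, was at 27.2 CPM there against 0.771 to 1.49 CPM in the other aPD1ab libraries, and Timd4, a receptor for phosphatidylserine on long-lived macrophages, at 5.64 against 0.367 to 0.576 CPM, whereas the summed macrophage markers of aPD1ab 2 were the lowest of all 8 libraries, at 1894 CPM. Prg2, the major basic protein of eosinophil granules, was at 0.0783 CPM against 5.75 to 7.34 CPM, and Jchain, which joins IgA and IgM subunits, at 15.5 CPM against 238 to 441 CPM. Prg2 in aPD1ab 2 lies under the 3 counts taken as the floor. These values are a description of 1 library, chosen by how far it lay from its group. In IgG2a 1, the genes farthest from the other controls included Apoh, a plasma glycoprotein, at 3.43 against 0.102 to 0.393 CPM, and Cyp4a14, a fatty acid hydroxylase that PPAR alpha induces, at 19.4 against 0.521 to 6.21 CPM. Sidt1, an RNA transporter family member that lymphocytes express, was at 0.107 against 1.32 to 2.48 CPM, and Cd177, a neutrophil surface protein, at 0.322 against 1.49 to 7.04 CPM.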

How the data were processed

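The authors sequenced polyadenylated RNA of the podocyte fraction and deposited raw read counts per Ensembl gene, without normalization, in 1 table of 46078 genes and 15 columns. The submitters' processing notes name HISAT2, featureCounts and mm10/GRCm38, without versions, so the handling of strand and of reads in near-identical copies is not given in the sources used here. Columns were tied to groups by the numbers the study prints in its principal component plot, and 7 columns (5 young libraries, 568 and 671) were not used. Symbols and positions came from GENCODE M21 for 45229 genes.

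The 4 aPD1ab and 4 IgG2a libraries were fitted in R 4.3.3 with edgeR 4.0.16 (quasi-likelihood test, robust, TMM, genes kept by filterByExpr, Benjamini-Hochberg), with and without IgG2a replicate 1. The script was tested on simulated data. CPM values are counts divided by the library total times its TMM factor, and log2 CPM used a prior count of 2. Called genes have an adjusted p under 0.05, and counts past 2-fold add that change. Alternatives used limma 3.58.1 and DESeq2 1.42.0. Totals of 19912969 to 32717100 counts set the counting error only.

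The 51 gene lists (16 of cell types), the comparison and the omission of IgG2a replicate 1 were chosen with earlier results of these data known. Named were protein-coding genes with a mean of at least 1 CPM: the 12 with the smallest p in each direction without overlap over 8 libraries, the 5 in each direction over 7, the 5 farthest in each direction in IgG2a 1 and aPD1ab 2, PD-1 and its ligands, and at most the 4 most abundant genes of each list. Other genes, and the subset reported, were chosen after their values were seen. Some genes are not reported here.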

Additional observations from a re-analysis of the deposited data

Results flagged for a closer look

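Of 248 groups of 4 libraries examined (values in the text, each in aPD1ab and in IgG2a), 47 held 1 library whose gap to the nearest other, divided by the group's range, was above Dixon's 95% critical value. Chance flags about 1 in 20 groups, but that rate is no yardstick here: many of the genes were named because IgG2a 1 or aPD1ab 2 lay far from its group or because the fit without IgG2a 1 ranked them. The groups also share genes of the same lists.

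IgG2a 1 was the library apart in most of these groups. Its list sums were 11156 CPM for proximal tubule markers (2364 to 3516 in the other controls), 2242 for gluconeogenesis (509 to 799) and 570.2 for mitochondrial ribosomal proteins (406 to 408). Among nuclear genes of mitochondria it held 22.5 CPM of Glrx5, 27.4 of Mrpl12, 49.7 of Ndufc1, 29.4 of Fmc1, 156 of Ndufb9, 169.9 of Cycs, 1892 of Atp5b, 140.5 of Etfb and 369.6 of Cpt1a, each above the other controls. The same held for tubule and metabolic genes, with 1423 CPM of Slc34a1, 3073 of Kap, 107 of G6pc, 31.0 of Gldc, 2.06 of Bhmt, 27.4 of Ddo and 23.2 of Ggnbp1, and for the distal genes Umod, at 4972 CPM, and Slc12a3, at 5462. Its clock genes Arntl, at 32.3 CPM, Npas2, at 11.98, and Clock, at 57.5, and the plasma protein gene Apoh, at 3.43, were also high. It held the least of Kdm6a, at 26.7 CPM, Fcgr2b, at 128, and Pola1, at 7.88.

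aPD1ab 2 was highest in its group for the summed proximal tubule markers, at 32033 CPM, and interferon-stimulated genes, at 1251. It was also highest for Tysnd1, at 35.2 CPM, Mrpl37, at 64.7, Cycs, at 224, Irf7, at 212, Vsig4, at 27.2, Timd4, at 5.64, and Cd177, at 3.21. In IgG2a 2, Irf7 was at 484 CPM.

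aPD1ab 3 was apart for Dbp, at 20.4 CPM, Per3, at 17.1, and B2m, at 746. aPD1ab 4 was apart for Havcr1, at 24.4 CPM, Hmox1, at 233, and Pdcd1lg2, at 1.68. aPD1ab 1 was apart for Ggnbp1, at 25.4 CPM, and Fmc1, at 30.6, although the range of Fmc1 within the group was small. IgG2a 4 held 2829 CPM of Igkc.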

How the results depend on the processing

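Past an adjusted p of 0.05 and 2-fold, the counts over 8 libraries were 0 higher and 0 lower, and became 743 and 350 with DESeq2 and 1268 and 1061 with limma voom and sample quality weights. Leaving out 1 library gave 0 to 1334 higher and 0 to 917 lower, where only the omission of IgG2a replicate 1 gave any. Over 7 libraries the counts of 1334 and 917 became 2569 and 279 with no scaling beyond library size, and 2702 and 2086 with no fold threshold. Leaving out another library gave 637 to 1476 higher and 380 to 1122 lower, the lowest without IgG2a replicate 2, and 870 and 550 without IgG2a replicate 3. Without IgG2a replicate 4 it was 948 and 534. The cause was not tested. DESeq2, its size factors, limma voom with or without quality weights and either filter on low counts kept both counts over 7 libraries within 1.5 times. The same held for leaving out mitochondrially encoded genes, with or without the TMM factor (added after the data were seen). In CPM without the TMM factor (also added after the data were seen), the groups did not overlap for 1262 higher and 156 lower genes, in place of 1087 and 777.

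Of 97 named genes with a fold change or call in the text, 2 turned direction, both over 8 libraries without IgG2a replicate 2: Cpt1a to a log2 fold change of -0.012 and Irf7 to 0.22. Leaving out 1 library gave -0.012 to 0.32 for Cpt1a and -2.05 to 0.22 for Irf7. The cause was not tested. Of 78 called over 7 libraries, 23 lost the call when at least 1 further library was left out, with edgeR adjusted p of up to 0.127. No scaling beyond library size ended the call for 15 genes. The same setting moved the medians of 27 of 51 lists over 7 libraries by more than the spread between replicates. No paired analysis was possible because each column could be tied to a group only, with no replicate number shared between the groups.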

Other observations

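Gene families grouped by the first letters of their symbols were chosen after their values were seen. Of 354 tested genes whose symbol begins with Zfp, most of which encode zinc finger proteins that bind DNA, 64 (18.1%) lay below every control in all aPD1ab libraries and 8 (2.26%) above, against 5.0% and 7.0% of all genes. Without the TMM factor 16 (4.52%) lay below and 11 (3.11%) above, against 1.0% and 8.13% of all genes. Their median log2 fold change was -0.30 over 8 libraries and -0.31 over 7. Many of these genes have near-identical copies, so that their counts are uncertain one by one. Of 77 genes that begin with Mrpl or Mrps, 33 (42.9%) lay above every control and 59 were called higher over 7 libraries, and of 47 that begin with Nduf, which encode subunits and assembly factors of complex I, 17 (36.2%) lay above and 43 were called. Without the TMM factor 31 (40.3%) of the Mrpl and Mrps genes and 16 (34.0%) of the Nduf genes lay above. Of 308 solute carriers that begin with Slc, 27 (8.77%) lay above and 14 (4.55%) below, close to the 7.0% and 5.0% of all genes. Without the TMM factor 26 (8.44%) and 2 (0.65%) did, against 8.13% and 1.0% of all genes. Over 7 libraries 116 of 310 (37.4%) were called higher and 24 (7.74%) lower, against 17.1% and 13.2% of all genes.

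The smallest p over 8 libraries was that of a long non-coding RNA, Gm26522, at 0.514, 0.548, 0.470 and 0.497 CPM in aPD1ab 1 to 4 and at 2.198, 3.303, 2.799 and 3.65 CPM in IgG2a 1 to 4 (log2 fold change -2.54, SE 0.27, edgeR adjusted p = 0.102). IgG2a 1 was the lowest of the controls and still above every aPD1ab library. Minar1, a membrane protein linked to Notch signaling, was at 0.262 to 0.366 CPM against 1.07, 1.34, 2.24 and 1.76 CPM in IgG2a 1 to 4, where the same held.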
